A study of Mus musculus with 6 samples.

Results

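The genes followed here encode transcription factors of the heart, and their transcripts were measured in whole lung: Gata4, Nkx2-5, Tbx20, Tbx5, Mef2c and Hand2. These 6 genes were chosen by symbol, and every probe set that the platform annotation assigns to exactly 1 of these symbols was taken, which gave 13 probe sets. They were 6 of the 17097 genes, and 13 of the 45037 probe sets, that were tested. A probe set is a group of short probes for 1 transcript, and its level is a log2 value on each array. The hydrogen group was 3 male BALB/c mice kept for 3 weeks in air with 2% hydrogen gas, and the control group was 3 male BALB/c mice reared in normal air. All mice were 10 weeks old at the start and no other treatment or allele is given. Each lung was measured on its own array, and the number of arrays limits the precision.

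In the embryonic heart these factors act together. GATA4 is a zinc finger protein, NKX2-5 a homeodomain protein, TBX20 and TBX5 are T-box proteins, MEF2C is a MADS-box protein and HAND2 a basic helix-loop-helix protein. They bind near genes of heart muscle, such as the natriuretic peptide gene Nppa, and several of them bind each other. In mice, heart muscle also forms sleeves around the pulmonary veins. Some of the factors have roles outside the heart: Tbx5 acts with Tbx4 in the mesenchyme of the growing lung, Mef2c in endothelium and in B cells, and Hand2 in sympathetic neurons.

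The largest change was that of Tbx20, whose brightest probe set fell in hydrogen lungs to the level of low signal (log2 fold change -1.32), while the other probe sets of Tbx20 did not pass the test. Mef2c fell slightly on each of its 3 probe sets, of which 1 was still called after the arrays were rescaled by cyclic loess. Gata4, Nkx2-5 and Hand2 rose slightly, and the call of Hand2 was lost after that rescaling. Nkx2-5 and the brighter Gata4 probe set lay slightly above the median probe set, and the other probe sets of Gata4 and Hand2 below it. Tbx5 did not pass the test. A change was called at an adjusted p under 0.05 in limma, a linear model that shares information on the spread across probe sets, with Benjamini-Hochberg adjustment over all 45037 of them. By that rule the hydrogen lungs were higher for 4 of the 13 (30.8%) and lower for 4 (30.8%), against 24.3% higher and 22.8% lower among all probe sets. The count of calls among the 13 was thus near that of the whole array. The groups did not overlap for 10 of the 13 probe sets (76.9%), against 57.3% of all probe sets. A call with a log2 fold change of -1 or below was found for 1 of the 13, against 0.591% of all probe sets.

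**Figure D1:**
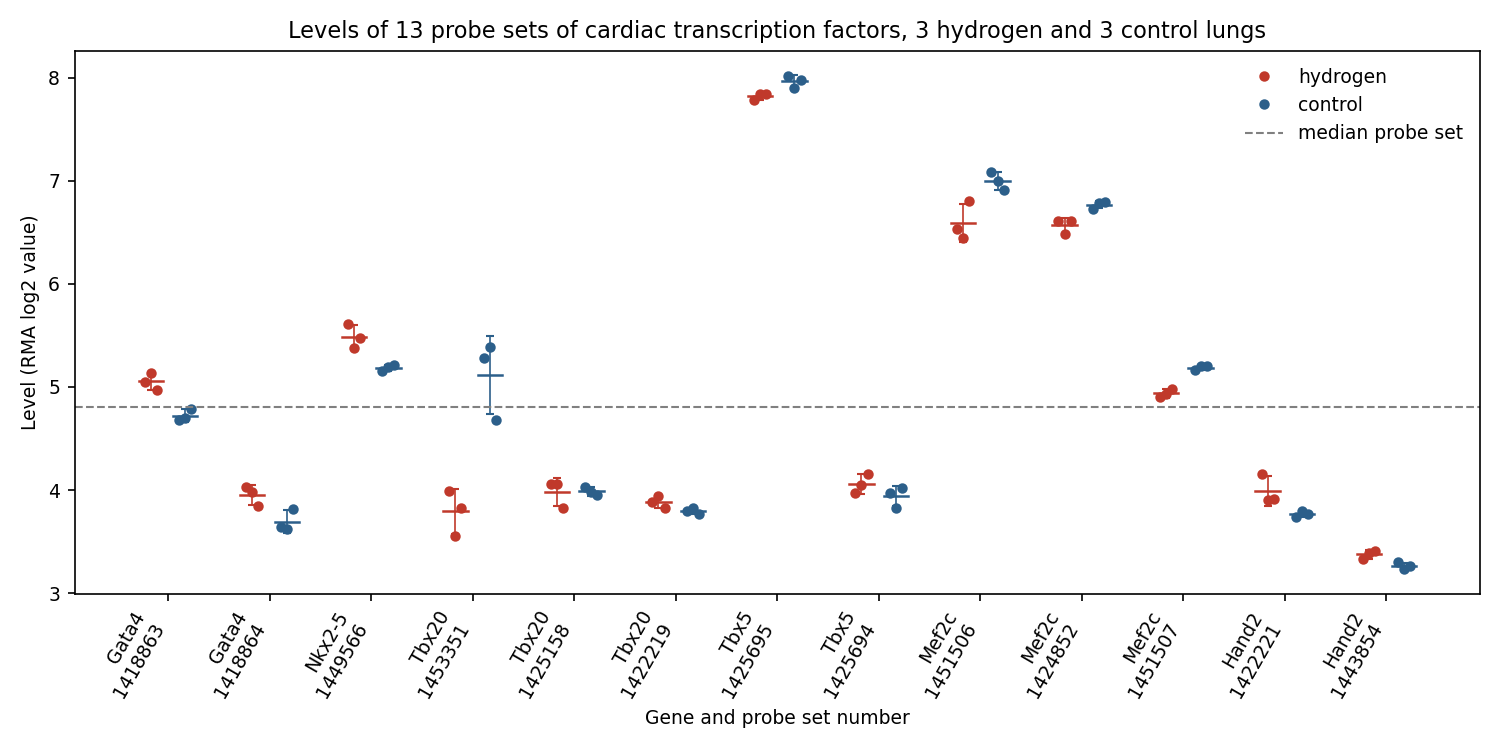
Level (RMA log2 value) of each of the 13 probe sets in 3 hydrogen lungs (red) and 3 control lungs (blue), with the mean as a bar and the SD as the error bar (n = 3 each); the dashed line is the median probe set of the array, at 4.80. Tbx20 probe set 1453351 is the one with a wide gap between the groups, and 7 of the 13 probe sets lie at or below the median probe set.

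Whole lung holds many cell types, and fewer cells of a type and less RNA per cell cannot be told apart in such samples. Defining lung markers were bright: the surfactant gene Sftpc, with 13.17 in hydrogen lungs and 13.15 in control lungs, and the endothelial junction gene Cldn5, with 10.52 in hydrogen lungs and 10.53 in control lungs. Neither passed the test, but Sftpc lay near the highest mean level of any probe set, 13.22, where a change could be hidden. The arrays of the hydrogen group had a narrower spread of values, with an SD of 1.80 to 1.81, against 1.90 to 1.92 in the control group. Arrays correlated over probe sets at 0.996 to 0.997 within a group and at 0.980 to 0.988 between groups. Of 23 nonspecific control probe sets, which match no mouse transcript, 9 were higher in the hydrogen group and 0 lower in limma (0 also at an unadjusted p under 0.05). The labels give no batch, so a difference between array runs and the hydrogen exposure cannot be told apart.

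Each change was set against the brightness of its probe set. The 81 probe sets of olfactory and vomeronasal receptor genes (symbols starting with Olfr, Vmn1r or Vmn2r), which are known for their use in the nose, served as a measure of low signal. Their mean levels had a median of 3.74 and a 95th percentile of 5.13. Of the member probe sets, 3 were brighter than all of these receptor probe sets: Tbx5 probe set 1425695 and Mef2c probe sets 1451506 and 1424852. Nkx2-5 was at or above 98.8% of them, Mef2c probe set 1451507 at or above 93.8% and the brighter Gata4 probe set at or above 88.9%. The brightest Tbx20 probe set was at or above 79% of them over all 6 arrays, and the brighter Hand2 probe set at or above 61.7%. Probe sets differ in how strongly they bind, so these positions describe signal over background and do not rank the amounts of the transcripts.

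The receptor probe sets also differed between the groups. Of the 81, 27 were higher in the hydrogen group and 0 lower in limma (0 also at an unadjusted p under 0.05). Their log2 fold changes had a median of 0.13 and a 90th percentile of 0.38. Among all probe sets the direction followed brightness, with a median log2 fold change of 0.15 in the fourth decile of brightness and -0.23 in the ninth. The changes of Gata4, Nkx2-5 and Hand2 (0.11 to 0.33) were below that 90th percentile. Of the 13 member probe sets, 1 lay outside the 10th to 90th percentile of the change in its own decile of brightness, and this was Tbx20 probe set 1453351. The part of the brightness trend in the smaller changes was not tested for single genes beyond the rescaled values given below.

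**Figure D2:**
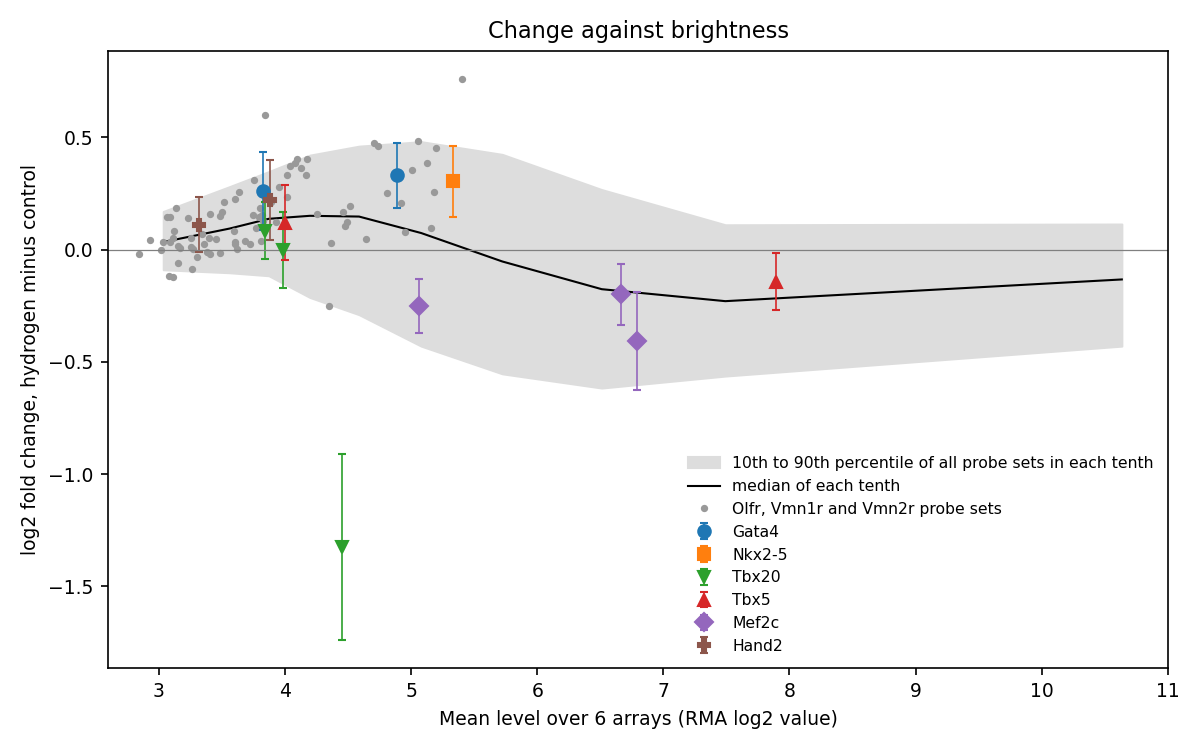
Log2 fold change (hydrogen minus control, with 95% confidence interval from limma) against mean level over 6 arrays for the 13 probe sets, by gene. Grey dots are the 81 olfactory and vomeronasal receptor probe sets, the band holds the 10th to 90th percentile of all probe sets in each decile of brightness and the line is the median of each decile, drawn at the middle of its range of levels; only the Tbx20 point at -1.32 lies below the band.

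Tbx20 encodes a T-box factor that heart muscle needs in the embryo and in the adult. Its brightest probe set, 1453351, had 3.99, 3.56 and 3.83 in hydrogen lungs 1, 2 and 3, against 5.28, 5.39 and 4.68 in control lungs 1, 2 and 3. All hydrogen lungs were below all control lungs, and control lung 3 was the lowest of its group. The hydrogen values lay near the median of the receptor probe sets, 3.74, so the fall ended at the level of low signal, where its full size cannot be measured. Control lungs 1 and 2 were above the 95th percentile of the receptor means, 5.13. The brightest receptor probe set had 5.4, above all control lungs of Tbx20, but this is a mean over hydrogen and control arrays together. That receptor probe set was higher in hydrogen lungs (log2 fold change 0.76), so its control mean was below 5.4. The comparison thus does not place control lungs 1 and 2 within the range of low signal. The mean of Tbx20 probe set 1453351 was 3.79 ± 0.22 in hydrogen lungs and 5.12 ± 0.38 in control lungs (SD, n = 3 each). The log2 fold change was -1.32 (SE 0.18, 95% confidence interval -1.74 to -0.91, limma adjusted p = 0.000993), while its decile of brightness had a median of 0.15. It was past the threshold in each of the 13 alternatives in which it was measured, with values from -1.54 (without control replicate 3) to -1.19 (without control replicate 2).

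The other Tbx20 probe sets did not show this difference. Probe set 1425158 had 4.06, 4.06 and 3.83 in hydrogen lungs, against 4.03, 3.98 and 3.95 in control lungs. Its log2 fold change was -0.0033, with a 95% confidence interval of -0.17 to 0.17 (limma adjusted p = 0.973). Probe set 1422219 had 3.88, 3.94 and 3.83 in hydrogen lungs, against 3.80, 3.83 and 3.77 in control lungs. Its log2 fold change was 0.08, with a 95% confidence interval of -0.04 to 0.21 (limma adjusted p = 0.243). Both overlapped between the groups and lay within the range of the receptor probe sets in every lung, control lungs included, and neither interval met that of the brightest probe set. When all 3 probe sets were averaged per array, Tbx20 had a log2 fold change of -0.41 (limma adjusted p = 0.00371 over all genes).

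The start of the Tbx20 gene is shown because it carries the largest change, and that of Hand2 because its window held the most matches to the factors' own motifs. The windows run from 250 bases before to 50 bases after the start site, from RefSeq on GRCm38.p6, and 4 of the 6 genes had an entry (6 windows in all). The Tbx20 window is chr9:24774254-24774553 on the minus strand and the Hand2 window is chr8:57320733-57321032 on the plus strand. Both are written 5′ to 3′, with matches on either strand to the motifs AGATAA for GATA factors, AAGTG for NKX factors, GGTGTG for T-box factors, CTATTTA for MEF2 factors (1 form of their site) and CANNTG, the E-box of HAND proteins, in capitals.
Tbx20: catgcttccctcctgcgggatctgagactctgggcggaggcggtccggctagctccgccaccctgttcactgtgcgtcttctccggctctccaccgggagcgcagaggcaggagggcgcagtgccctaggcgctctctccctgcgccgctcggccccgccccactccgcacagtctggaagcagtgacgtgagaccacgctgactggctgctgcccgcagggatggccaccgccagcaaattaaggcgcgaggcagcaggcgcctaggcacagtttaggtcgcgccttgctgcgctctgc
Hand2: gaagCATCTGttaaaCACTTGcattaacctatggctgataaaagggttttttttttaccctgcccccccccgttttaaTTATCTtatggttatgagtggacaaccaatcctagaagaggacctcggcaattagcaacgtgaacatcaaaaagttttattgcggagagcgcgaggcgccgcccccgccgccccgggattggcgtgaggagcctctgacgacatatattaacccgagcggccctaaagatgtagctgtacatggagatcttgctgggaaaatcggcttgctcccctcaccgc
The Tbx20 window, with 68.3% G and C bases, held none of these motifs. The Hand2 window held 1 GATA match, 1 NKX match and 2 E-boxes, and the NKX match lies inside 1 of the E-boxes. Of 32851 windows of 300 bases, 11.2% held the GATA motif, 46.4% the NKX motif, 19% the T-box motif, 2.91% the MEF2 motif and 72.3% an E-box. The array has no measure of binding, and the matches describe these windows only.

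By array, Tbx20 probe set 1453351 differed from the control mean by -1.13, -1.56 and -1.29 (log2) in hydrogen lungs 1, 2 and 3. Genes with the most similar pattern over the 6 arrays were sought among 17097 genes by the root mean square difference of log2 values, each centred on its own mean. The nearest were Ccdc39, a gene of ciliary assembly (0.15), 1700029J07Rik (0.16) and Aqp4, which encodes a water channel (0.16). Ccdc39 had 5.56, 5.45 and 5.69 in hydrogen lungs, against 6.98, 6.87 and 6.26 in control lungs. These genes were picked for their likeness over these same arrays, so their order of lungs follows from that choice.

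Heart muscle genes differed between the same lungs. Of 26 measured genes of the list, 20 fell and 4 rose in hydrogen lungs, against 26.4% lower and 26.1% higher among all genes. The 4 higher genes, chosen for naming once their values were known, were the connexin genes Gja1 (0.26) and Gja5 (0.35), the ventricular myosin gene Myl2 (0.36) and Xirp1 (0.26), the last 3 of these on dim probe sets. Xirp1 missed the threshold without hydrogen replicate 2 (limma adjusted p = 0.050007). The 2 genes that did not pass were Nppb, a natriuretic peptide gene (log2 fold change 0.21, limma adjusted p = 0.186), and Bmp10, a growth factor gene of the heart (0.17, adjusted p = 0.0603), both on dim probe sets. The list was put together with earlier results of these data known and is no independent support. Its median log2 fold change was -1.63, against 0.01 over all genes, and 6 of the 26 were at or below the median probe set. The mean level of the 26 genes was 6.99, 5.66 and 6.69 in hydrogen lungs 1, 2 and 3, against 7.93, 7.70 and 7.77 in control lungs 1, 2 and 3. Hydrogen lung 2 was the lowest for this list and for Tbx20, while control lung 3, low for Tbx20, was in the middle of its group for the list. The part of heart muscle cell content in the fall of Tbx20 was not tested.

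The genes named next are from the 20 that fell. Nppa, the atrial natriuretic peptide gene, had 6.75, 3.96 and 4.19 in hydrogen lungs, against 9.66, 8.63 and 9.60 in control lungs (log2 fold change -4.33, limma adjusted p = 0.00114). Myl7, the atrial myosin light chain gene, had 9.91, 7.22 and 9.38 in hydrogen lungs, against 11.15, 10.83 and 11.05 in control lungs (log2 fold change -2.17, limma adjusted p = 0.0125). Without hydrogen replicate 2 the log2 fold change of Myl7 was -1.37. Ckmt2, the mitochondrial creatine kinase gene of striated muscle, had a log2 fold change of -2.77 (limma adjusted p = 0.00151). The level of Myl7 stayed far above the median probe set in all lungs, unlike that of Nppa in hydrogen lungs 2 and 3.

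**Figure D3:**
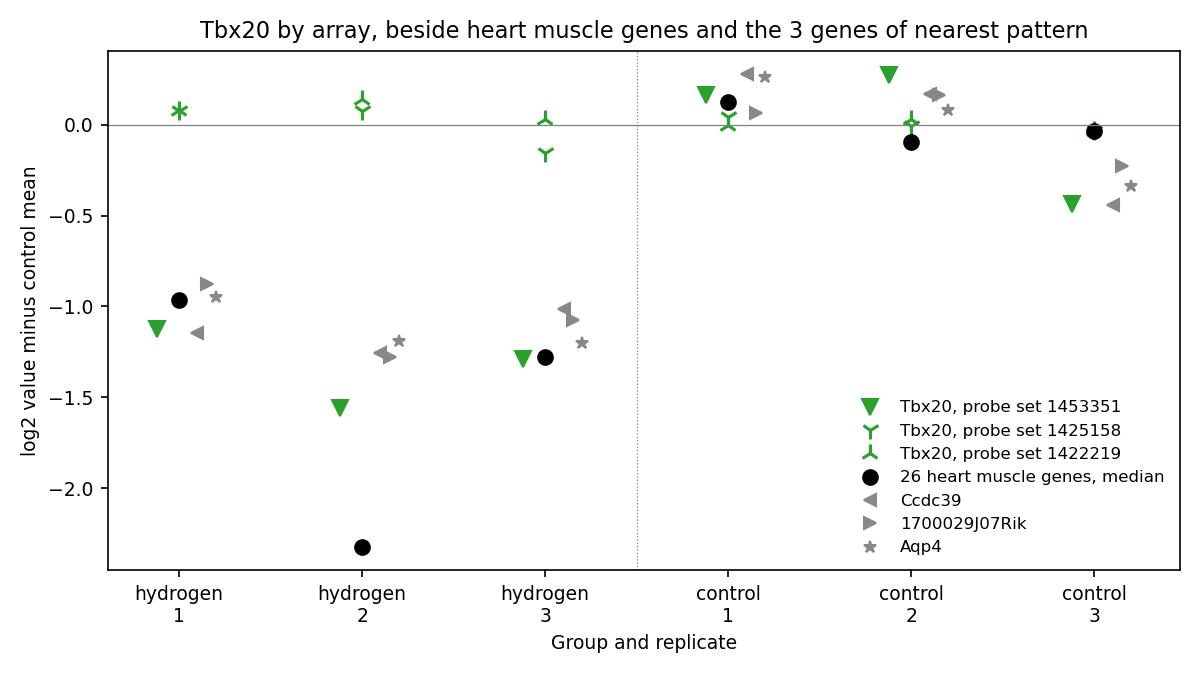
Log2 value minus the control mean in each hydrogen and control lung for the 3 probe sets of Tbx20 (green), the median of 26 heart muscle genes (black) and the 3 genes of nearest pattern (grey). Tbx20 probe set 1453351 lies at -1.56 to -1.13 in the hydrogen lungs, and the other probe sets of Tbx20 stay near 0.

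Gata4 encodes a zinc finger factor that activates many heart muscle genes and is also used by endoderm-derived organs. Its brighter probe set, 1418863, had 5.05, 5.14 and 4.97 in hydrogen lungs, against 4.68, 4.70 and 4.79 in control lungs. All hydrogen lungs were above all control lungs. The log2 fold change was 0.33 (SE 0.06, limma adjusted p = 0.00408), and it was 0.22 after cyclic loess, which removes the trend with brightness between arrays. This probe set was called in all 14 alternatives. The dimmer probe set, 1418864, had 4.03, 3.98 and 3.85 in hydrogen lungs, against 3.64, 3.62 and 3.82 in control lungs. Its groups were just apart, with 3.85 as the lowest hydrogen value and 3.82 as the highest control value. Its log2 fold change was 0.26 (SE 0.08, limma adjusted p = 0.022), and it fell short of the threshold after median centring, a second quantile normalisation and cyclic loess (adjusted p = 0.0893, 0.149 and 0.14) and without hydrogen replicate 1 or 2 or control replicate 1 or 2 (0.0742, 0.0681, 0.0681 and 0.0748).

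Nkx2-5, on 1 probe set, encodes the homeodomain factor of early heart muscle precursors, which mice also need for the muscle of the pulmonary veins. It had 5.61, 5.38 and 5.47 in hydrogen lungs, against 5.15, 5.19 and 5.21 in control lungs. The groups did not overlap, and the hydrogen lungs were more spread, with an SD of 0.12 against 0.03 in control lungs. The log2 fold change was 0.30 (SE 0.07, limma adjusted p = 0.00783), against a median of 0.07 in its decile of brightness. It was called in all 14 alternatives, with values from 0.21 (median centring) to 0.36 (without hydrogen replicate 2).

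Hand2 encodes a basic helix-loop-helix factor of the right ventricle and of sympathetic neurons. Its probe set 1422221 had 4.16, 3.90 and 3.91 in hydrogen lungs, against 3.74, 3.80 and 3.77 in control lungs. Hydrogen lung 1 stood above the other two. The log2 fold change was 0.22 (SE 0.08, limma adjusted p = 0.0449), and it was called in 4 of 13 alternatives. Without hydrogen replicate 1 the log2 fold change was 0.14 (limma adjusted p = 0.119), and without control replicate 1, 2 or 3 the adjusted p was 0.111, 0.0807 and 0.0865. After median centring, a second quantile normalisation and cyclic loess it was 0.196, 0.326 and 0.314. Probe set 1443854, the dimmest of the 13, had 3.33, 3.39 and 3.41 in hydrogen lungs, against 3.30, 3.24 and 3.26 in control lungs, and did not pass (log2 fold change 0.11, limma adjusted p = 0.121).

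Mef2c encodes a MADS-box factor of muscle, endothelium and B cells, and its 3 probe sets fell. Probe set 1451506 had 6.53, 6.44 and 6.80 in hydrogen lungs, against 7.08, 7.0 and 6.91 in control lungs. Its log2 fold change was -0.41 (SE 0.10, limma adjusted p = 0.0092), against a median of -0.18 in its decile of brightness. Hydrogen lung 3 was nearest to the control lungs, and the groups did not overlap. Probe set 1424852 had 6.61, 6.48 and 6.61 in hydrogen lungs, against 6.73, 6.78 and 6.79 in control lungs. Its log2 fold change was -0.20 (SE 0.06, limma adjusted p = 0.0234), close to the median of its decile. The threshold was missed by this probe set without hydrogen replicate 2 or control replicate 2 or 3 (adjusted p = 0.0879, 0.0632 and 0.0574).

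The dimmest Mef2c probe set, 1451507, had 4.90, 4.93 and 4.98 in hydrogen lungs, against 5.16, 5.20 and 5.20 in control lungs. Its lungs were the least spread of the 3 probe sets, with an SD of 0.04 in hydrogen lungs and 0.02 in control lungs. The log2 fold change was -0.25 (SE 0.05, limma adjusted p = 0.00577), while its decile of brightness had a median of 0.07. It was called in all 14 alternatives, from -0.34 to -0.23. After cyclic loess the other Mef2c probe sets were not past the threshold, with -0.23 for 1451506 (adjusted p = 0.0821) and -0.03 for 1424852 (adjusted p = 0.713). After a second quantile normalisation these were -0.20 (adjusted p = 0.125) and -0.0044 (adjusted p = 0.961).

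Tbx5 encodes the T-box factor of the atria and of the forelimb, and also of lung mesenchyme. Its bright probe set, 1425695, had 7.78, 7.84 and 7.84 in hydrogen lungs, against 8.01, 7.90 and 7.98 in control lungs. The groups did not overlap, by a margin of 0.06 between the nearest lungs. The log2 fold change was -0.14 (95% confidence interval -0.27 to -0.02, limma adjusted p = 0.0636), which missed the threshold. Its sign depended on the scaling: it was -0.23 after median centring (adjusted p = 0.00937), but 0.09 when quantiles were normalised again and 0.05 after cyclic loess (adjusted p = 0.26 and 0.464). The dim probe set, 1425694, had 3.97, 4.05 and 4.16 in hydrogen lungs, against 3.97, 3.83 and 4.02 in control lungs, and did not pass (log2 fold change 0.12, limma adjusted p = 0.208).

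**Figure D4:**
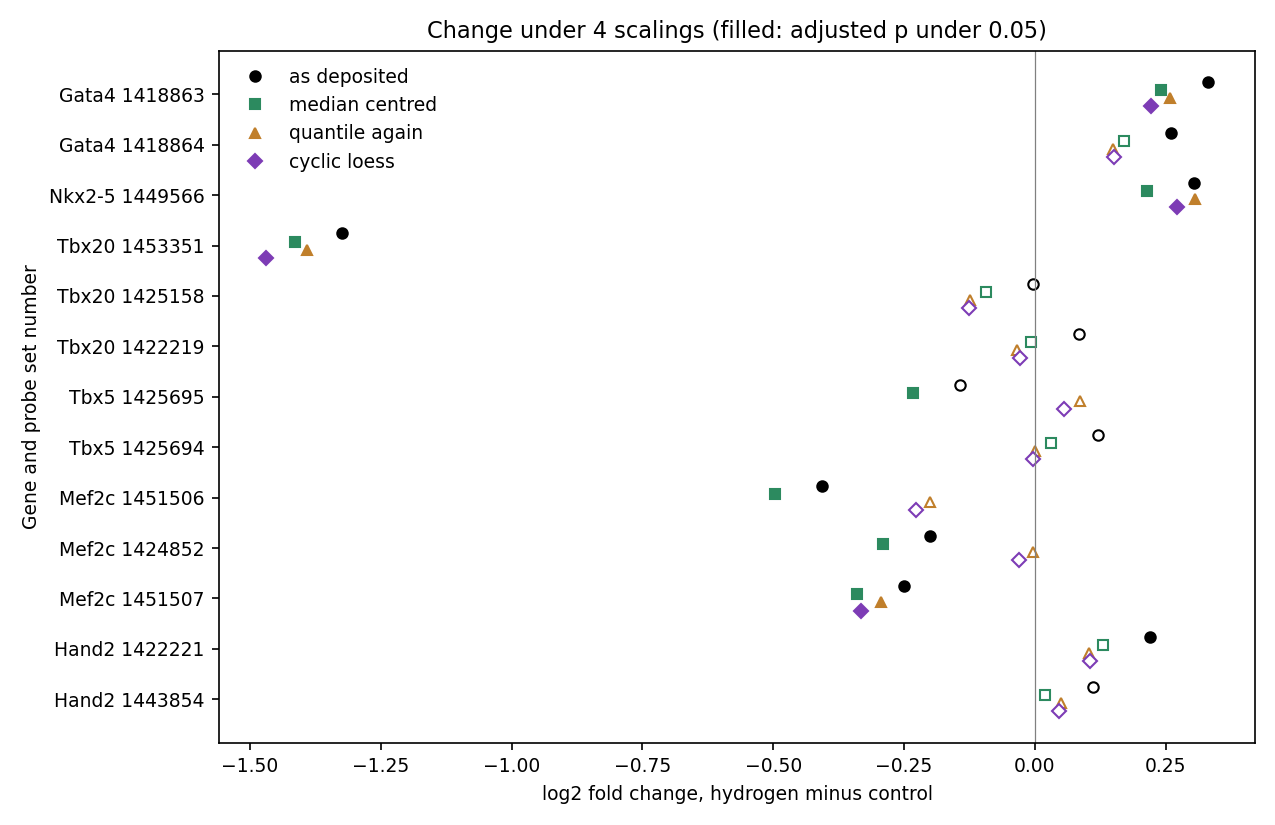
Log2 fold change (hydrogen minus control) of each probe set in the deposited values and after 3 further scalings of the 6 arrays; filled symbols have an adjusted p under 0.05 in limma. Tbx20 1453351, Gata4 1418863, Nkx2-5 and Mef2c 1451507 are filled under all 4, and the bright Tbx5 probe set has values from -0.23 to 0.09.

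Other factors and cofactors of heart development moved in both directions. Of 33 measured, 8 rose and 16 fell in hydrogen lungs, with a median log2 fold change of -0.15, against 26.1% higher and 26.4% lower among all genes. In deciles 8 to 10 of brightness, 40.9% to 53.5% of probe sets were lower. Of the 33 genes, 10 were at or below the median probe set. The largest falls were those of Ankrd1, a cofactor gene of heart muscle (log2 fold change -1.76, limma adjusted p = 0.000794), and Csrp3, a LIM protein gene of striated muscle (-1.39, adjusted p = 0.0248). The size for Csrp3 rested on hydrogen lung 2: it had 8.03, 5.98 and 7.44 in hydrogen lungs, against 8.78, 8.48 and 8.35 in control lungs, and without hydrogen replicate 2 the log2 fold change was -0.80. Csrp3 missed the threshold without control replicate 1 or 2 (limma adjusted p = 0.0757 and 0.0619). The following relatives of the 6 genes were named after their values were seen. Gata6, the GATA factor gene of lung epithelium, rose by 0.29 (limma adjusted p = 0.0239), and had 8.13, 8.01 and 7.81 in hydrogen lungs, against 7.79, 7.67 and 7.63 in control lungs. Gata6 was not called without hydrogen replicate 1 or 2 or control replicate 2 or 3 (limma adjusted p = 0.0676 to 0.0779).

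Hand1, the closest relative of Hand2, rose by 0.46 (limma adjusted p = 0.00558), and the homeobox gene Nkx2-6 rose by 0.73 (adjusted p = 0.000528). Mef2d fell by 0.21 (limma adjusted p = 0.0197), while Mef2a (log2 fold change -0.11, adjusted p = 0.175) did not pass and Mef2b, on a dim probe set, rose by 0.35 (adjusted p = 0.0156). Tbx1 fell by 0.57 (limma adjusted p = 0.0018). Tbx3 fell by 0.18 (adjusted p = 0.0405), a call that was lost without hydrogen replicate 1, 2 or 3 (0.0584 to 0.107). Tbx2 (log2 fold change -0.15, limma adjusted p = 0.132) and Tbx18 (-0.0067, adjusted p = 0.935) did not pass, though Tbx2 gained a call without hydrogen replicate 3 (adjusted p = 0.0459). Zfpm2, which encodes the cofactor FOG2 that binds GATA4, fell by 0.44 on a dim probe set (limma adjusted p = 0.00297). Srf, the serum response factor gene, fell by 0.32 (limma adjusted p = 0.0173). The called relatives were also set against the 10th to 90th percentile of the change in their own deciles of brightness. Gata6, Hand1 and Nkx2-6 were above that range and Tbx1 and Zfpm2 below it, while Mef2b, Mef2d, Tbx3 and Srf were within it. With 1 lung left out, the call was lost for Mef2d (without hydrogen replicate 1 or 2 or control replicate 2, limma adjusted p = 0.0614 to 0.0672), for Mef2b (without hydrogen replicate 2 or control replicate 1, 0.0538 and 0.0559) and for Srf (without hydrogen replicate 2 or control replicate 2 or 3, 0.0528 to 0.0635). Mef2a gained a call without control replicate 2 (-0.18, adjusted p = 0.0482).

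Among 17 genes of lung mesenchyme that work with Tbx4 and Tbx5, 3 rose and 7 fell in hydrogen lungs, with a median log2 fold change of -0.15, against shares of 26.1% and 26.4% among all genes. Here too, 40.9% to 53.5% of probe sets were lower in deciles 8 to 10 of brightness. Of the 17 genes, 2 were at or below the median probe set. Osr1 had the largest fall (log2 fold change -0.92, limma adjusted p = 0.000845), with 5.53, 5.17 and 5.07 in hydrogen lungs and 6.27, 6.28 and 5.97 in control lungs. Tcf21, a fibroblast transcription factor gene, followed (-0.74, adjusted p = 0.00155). Tbx4 fell by 0.26 (limma adjusted p = 0.00553), with 8.84, 8.88 and 8.85 in hydrogen lungs, against 9.14, 9.05 and 9.15 in control lungs. Wnt2b, which in mice is a known target of Tbx5 in the lung bud, rose by 0.50 on a dim probe set (limma adjusted p = 0.000799), and Wnt2 rose by 0.26 (adjusted p = 0.0402), a call that was lost without hydrogen replicate 1 or 2 or control replicate 1 or 2 (0.0562 to 0.135). Gli1, a target and mediator of hedgehog signals, rose by 0.32 (limma adjusted p = 0.014).

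Markers of cell types in which the factors are used were read beside them. Among all genes 26.1% were higher and 26.4% lower, but the shares among probe sets changed with brightness. In deciles 9 and 10 of brightness, 53.5% and 40.9% of probe sets were lower. In deciles 4 and 5, 41.9% and 42.1% were higher. Counts of bright or dim markers are thus to be read against the shares at their brightness. With so few markers a list, several of these counts are near the shares among all genes. Of 7 smooth muscle markers, 6 fell and 0 rose in limma (7 and 0 at an unadjusted p under 0.05), with a median change of -0.58 (log2), led by Synpo2 (-0.76, limma adjusted p = 0.000523) and Myh11 (-0.71, adjusted p = 0.000244). Their mean level was 6.82, 6.77 and 6.45 in hydrogen lungs 1, 2 and 3, against 7.19, 7.21 and 7.15 in control lungs 1, 2 and 3. Endothelial markers fell in 2 of 8 cases, with a median of 0.02. This is close to the share among all genes, but these markers were bright. Emcn lay in decile 9 of brightness and the others in decile 10, with median changes of -0.23 and -0.13. The share that fell was below the 53.5% and 40.9% of probe sets there, though 8 markers are few. The 2 that fell were Pecam1 (-0.25, limma adjusted p = 0.0203) and Vwf (-0.18, adjusted p = 0.0279). Both calls were lost when 1 of several lungs was left out: without hydrogen replicate 3 or control replicate 3 for Pecam1 (limma adjusted p = 0.0617 and 0.0622), and without hydrogen replicate 1 or 3 or control replicate 1 or 3 for Vwf (0.0514 to 0.0934). Of 5 B cell markers, 3 rose and 0 fell in limma (4 and 0 at an unadjusted p under 0.05), with a median of 0.34, which were Blk (0.43, limma adjusted p = 0.00143), Pax5 (0.39, adjusted p = 0.00201), both on dim probe sets, and Ms4a1 (0.30, adjusted p = 0.0371). The changes of Blk and Pax5 were below the 90th percentile of their deciles of brightness (0.46 and 0.42), while that of Ms4a1 was above its own (0.11). Ms4a1 was not called without hydrogen replicate 2 or control replicate 1 or 3 (limma adjusted p = 0.0852 to 0.117). The part of these cell types in the fall of Mef2c was not tested.

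Sympathetic neuron markers were split, with 2 of 5 higher and 2 lower. Slc6a2, the noradrenaline transporter gene, fell by 1.37 (limma adjusted p = 0.000132), and Dbh, the gene of the enzyme that makes noradrenaline, rose by 0.81 (adjusted p = 0.000203). Th, the gene of the first enzyme of that pathway, rose by 0.35 and the transcription factor gene Gata3 fell by 0.45, both on dim probe sets (limma adjusted p = 0.00863 and 0.00706). Slc6a2 had 6.07, 6.03 and 6.18 in hydrogen lungs, against 7.39, 7.45 and 7.56 in control lungs. Mesothelial markers had 1 of 6 higher, Upk3b (0.69, limma adjusted p = 0.0449), and 1 lower, Krt19 (-0.60, adjusted p = 0.000291), which airway epithelium also uses. Upk3b had 7.88, 8.01 and 7.86 in hydrogen lungs, against 6.51, 7.54 and 7.62 in control lungs, so control lung 1 stood apart, and without control replicate 1 the log2 fold change was 0.34. Its call was lost without hydrogen replicate 1, 2 or 3 (limma adjusted p = 0.0809 to 0.109). Control lung 1 was also the lowest for the mean of the mesothelial list, with 6.77, 6.79 and 6.73 in hydrogen lungs, against 6.26, 6.85 and 6.79 in control lungs. Fibroblast markers fell in 3 of 7 cases and rose in 1, with Dcn (-0.76, limma adjusted p = 0.00246) and Lum (-0.73, adjusted p = 0.000602) leading, Col1a1 as the other one lower (-0.34) and Npnt as the one higher (0.19). Npnt missed the threshold without hydrogen replicate 2 or control replicate 3 (limma adjusted p = 0.0639 and 0.0569).

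Alveolar type 1 markers fell in 4 of 5 cases, led by Cav1 (-0.27, limma adjusted p = 0.00332) and Clic5 (-0.23, adjusted p = 0.00855). With 1 hydrogen lung left out, Ager (-0.15) lost its call without replicate 1, 2 or 3 (limma adjusted p = 0.0593 to 0.118). Pdpn (-0.17) lost it without hydrogen replicate 1 or 2 (0.0765 and 0.0623). All 5 markers lay in the tenth decile of brightness, where 40.9% of probe sets were lower, with a median change of -0.13 and a 10th percentile of -0.43. Of 5 alveolar type 2 markers 1 rose, Abca3 (0.18, limma adjusted p = 0.0295, and 0.0673 to 0.103 without hydrogen replicate 1 or 2 or control replicate 1 or 3), and of 6 macrophage markers 1 fell, Mrc1 (-0.50, adjusted p = 0.00609).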

How the data were processed

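Gene expression was measured in 6 lungs on MG-430 PM Array Strips of the Affymetrix GeneAtlas system, 1 array per mouse, per the labels' protocols. The deposited table holds log2 values per probe set, made by the authors with RMA and Affymetrix Expression Console, per the submitters' processing notes. Neither tool versions nor the normalisation run of each array is given in these sources. RMA compresses changes of dim probe sets. Array median values were 4.75 to 4.85. Arrays limit the precision: 3 mice per group, and an exact two-sided permutation test cannot go below p = 0.1.

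Of 45141 probe sets, 104 controls were left out, and 28898 of the rest name 1 gene. All 6 member symbols matched RefSeq (GRCm38.p6) by Entrez identifier. Groups were compared, hydrogen minus control, with limma 3.58.1 in R 4.3.3 (lmFit, eBayes), over all probe sets for the members and over 17097 genes (brightest probe set) for lists. Nonspecific controls were tested with all probe sets together. The step was tested on simulated data. Members and lists were chosen with earlier results of these data known. Named genes were the members, the 2 largest called changes without overlap in each list, Nppa, Myl7, Sftpc, Cldn5 and the 3 genes nearest to a member changed by at least 1. Relatives of the members and further called genes of short counts were named after their values were seen. Figures used matplotlib 3.10.9. Replicate numbers were not used as pairs in the main test.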

Additional observations from a re-analysis of the deposited data

How the results depend on the processing

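Some probe sets kept their direction and their call in every alternative in which they were measured: Gata4 1418863, Nkx2-5, Mef2c 1451507 (14 alternatives each) and Tbx20 1453351 (13, since leaving out dim rows removed it). The count of member probe sets called higher, 4 in the deposited values, was 2 after median centring, a second quantile normalisation or cyclic loess and without dim rows, and 2 to 4 on leaving out 1 lung. It was 2 without hydrogen replicate 1 and without control replicate 1 or 2. The count called lower, also 4, was 5 after median centring, 2 after a second quantile normalisation or cyclic loess and 3 to 4 on leaving out 1 lung. By gene, 2 were lower, which became 3 after median centring, where Tbx5 gained a call, and 1 after either of those other scalings and without dim rows. Of all probe sets, 10956 were higher and 10257 lower. Median centring gave 6377 higher and 14571 lower, and leaving out dim rows gave 3663 and 8396. Fewer probe sets were tested without dim rows, and the share of higher among the calls went from 51.6% to 30.4%. Dim probe sets were more often called higher than lower, with 9.75% against 2.93% in the first decile of brightness and 42.1% against 13.4% in the fifth. Leaving out 1 lung gave 7985 to 10097 higher. No scaling moved the median of all probe sets by over 0.1.

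Signs turned for probe sets that were not called. Tbx20 1425158 was 0.017 with array weights and ran from -0.042 to 0.073 on leaving out 1 lung, turning without control replicate 1 or hydrogen replicate 3. Tbx20 1422219 was -0.0067 after median centring, -0.034 after a second quantile normalisation and -0.028 with cyclic loess. Tbx5 1425694 was -0.00056 and -0.0032, and Tbx5 1425695 0.086 and 0.055, after those last scalings. The causes were not tested. With the replicate number as a block, 3 member probe sets were higher and 4 lower, and Hand2 1422221 missed the threshold (adjusted p = 0.0646). Deviations of same-numbered lungs correlated at 0.08, 0.03 and -0.11. With 3 lungs per group these values cannot settle whether the numbers pair the lungs. No change of another member crossed the threshold with the block. Low signal limits the 7 member probe sets at or below the median probe set. Leaving each lung out for the list genes was chosen after seeing the data: of the 84 that were called, 30 lost the call at least once.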
